A study of Mus musculus with 11 samples.

Results

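The genes described here are 9 integrin subunits of blood cells, chosen by their mouse symbols and mapped to the Ensembl identifiers of the deposited table, among 51912 genes in all: Itgam, Itgal, Itgax and Itgb2 of the beta 2 family, and Itga4, Itga5, Itga6, Itgb1 and Itgb7. Transcripts were measured by RNA sequencing in 11 samples of cultured C57BL/6 mouse bone marrow, in which an oncogenic CSF3R mutant and a C-terminal CEBPA mutant were introduced in different orders. CSF3R encodes the receptor for granulocyte colony-stimulating factor, and CEBPA a transcription factor of granulocyte differentiation. CSF3R-only cells (n = 4) carried constitutive mutant CSF3R in a retroviral vector marked by GFP and an empty copy of a Cre-inducible vector with a red reporter. CSF3R-first cells (n = 3) carried constitutive mutant CSF3R and inducible mutant CEBPA, and CEBPA-first cells (n = 4) carried constitutive mutant CEBPA and inducible mutant CSF3R. Marrow of Rosa26 ERT2-Cre mice provided the tamoxifen-activated recombinase in all groups. All groups were transduced in IL-3, IL6 and SCF, sorted as lineage negative and positive for both reporters, and then cultured for 48 h in 4-hydroxy tamoxifen without added cytokine. No group lacked mutant CSF3R, but it was constitutive in 2 of the groups and inducible in CEBPA-first cells, so both comparisons with CEBPA-first cells also differ in the vector and timing of mutant CSF3R, and these cannot be told apart from those of mutant CEBPA.

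Integrins are membrane receptors made of 1 alpha and 1 beta chain, which bind cell surface or matrix ligands and link them to the actin cytoskeleton. Itgb2 encodes the beta 2 chain (CD18), which pairs with the products of Itgal (CD11a, forming LFA-1), Itgam (CD11b, forming Mac-1) and Itgax (CD11c). CD11b is widely used as a marker of maturing granulocytes and macrophages. Itgb1 pairs with Itga4 in the VCAM-1 and fibronectin receptor VLA-4, with Itga5 in the main fibronectin receptor, and with Itga6 in a laminin receptor; Itgb7 pairs with Itga4 in the receptor for MAdCAM-1. Immature blood cells use VLA-4 to adhere in the marrow, and beta 2 integrins serve firm adhesion and phagocytosis in mature leukocytes.

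The stretches upstream of the starts of Itgam and Itgax, neighbours on chromosome 7 that were both lowest in CEBPA-first cells, and of Itga4, the 1 subunit that was highest there, are shown for comparison, and were thus chosen by their direction of change. They come from RefSeq (GRCm38.p6), whose promoter table was used for 6 of the 9 genes and not for Itgal, Itgb2 and Itga6. All are on the plus strand: Itgam chr7:128062390-128062639, Itgax chr7:128129300-128129546 and Itga4 chr2:79255176-79255425. Capitals mark matches on either strand to the letters TTNNGNAA (C/EBP), GAGGAA (PU.1), TTCNNNGAA (STAT) or TGTGGT (RUNX).
Itgam: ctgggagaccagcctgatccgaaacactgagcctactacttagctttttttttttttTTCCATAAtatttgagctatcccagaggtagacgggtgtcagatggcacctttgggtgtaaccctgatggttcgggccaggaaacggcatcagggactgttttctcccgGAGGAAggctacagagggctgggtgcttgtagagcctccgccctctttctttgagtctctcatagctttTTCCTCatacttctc
Itgax: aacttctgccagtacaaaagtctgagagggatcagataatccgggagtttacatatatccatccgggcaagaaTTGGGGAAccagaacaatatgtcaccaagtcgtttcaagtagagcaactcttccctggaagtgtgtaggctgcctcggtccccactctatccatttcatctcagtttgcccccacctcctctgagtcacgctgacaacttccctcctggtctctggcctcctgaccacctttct
Itga4: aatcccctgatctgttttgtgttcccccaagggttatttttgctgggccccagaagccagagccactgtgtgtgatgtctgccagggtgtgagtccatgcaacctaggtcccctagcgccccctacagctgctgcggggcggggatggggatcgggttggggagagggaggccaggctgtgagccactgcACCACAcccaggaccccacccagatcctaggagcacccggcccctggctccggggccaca
Each stretch ends at the base before the GENCODE start of its gene, and positions are counted back from that end, with Itgax shown for 247 bases and the others for 250. Itgam held 1 match to the C/EBP letters (193 bases back) and 2 to the PU.1 letters (84 and 15 bases back). Itgax held 1 match to the C/EBP letters at 174 bases, and Itga4 held 1 match to the RUNX letters at 60 bases. No 2 of these matches overlapped. Of the other 3 members in the table, which all fell in CEBPA-first against CSF3R-only cells, Itga5 held 2 matches to the C/EBP letters and 1 to the PU.1 letters, Itgb1 held 1 to the PU.1 letters, and Itgb7 held none of the 4. Of 27025 promoters of 250 bases, 36.9% held the C/EBP letters, 23.1% the PU.1 letters, 7.18% the STAT letters and 14.2% the RUNX letters. A match is a description of letters, not of a bound site. The printed stretches were 49.6%, 50.2% and 64.0% G and C, in the same order.

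Total counts were 49499527 to 65937530 in CSF3R-only samples, 47905747 to 61069929 in CSF3R-first samples and 49782847 to 72268346 in CEBPA-first samples. Each member had at least 83 counts in every sample, so counting error was small except for Itgax. Nothing states that replicates came from separate animals, so p-values measure the spread between these samples, which may be technical. CSF3R-first replicate A stood apart from replicates B and C: the chi-square per degree of freedom over genes was 110.2 and 82.8 between A and the other two, and 24.6 between B and C. The members' fold changes that involve CSF3R-first cells are therefore also given without it. The cells had the transcripts of myeloid cells, and of 13 lymphoid markers Cd3e, Cd8a and Ncr1 had no count and 11 stayed under 1 CPM (counts per 1000000 counts, with library sizes scaled by TMM) in every sample. Of the 5 lymphoid markers tested, Lck, Cd79b and Klrb1c rose and Cd3d and Cd79a fell in CEBPA-first against CSF3R-only cells, and the 13 summed to 5.40 to 7.07 CPM in CSF3R-only samples, 5.60 to 7.06 CPM in CSF3R-first samples and 10.7 to 11.8 CPM in CEBPA-first samples. The summed level of 14 neutrophil markers was 27633 to 33243 CPM in CSF3R-only samples, 17451 to 27767 CPM in CSF3R-first samples and 10367 to 12194 CPM in CEBPA-first samples. Of these markers, 12 were lower and 2 (Elane and Mpo, of the earliest granules) were higher in CEBPA-first cells than in CSF3R-only cells, against 36.6% lower and 35.4% higher of all genes tested, which is the background for each marker count in that comparison. The summed level of 12 monocyte and macrophage markers was 3106 to 3890 CPM, 1720 to 2944 CPM and 980.3 to 1357 CPM, and 9 of them fell and 3 (Ly6c2, Fcgr1 and Cd163) rose in the same comparison. The summed level of 9 megakaryocyte and platelet markers, which all fell, was 950.0 to 1287 CPM, 356 to 561 CPM and 114 to 158 CPM, in the same order of groups. Of 10 stem and progenitor markers, 5 rose (Kit, Mecom, Hlf, Myb and Sox4) and 4 fell (Cd34, Ly6a, Procr and Esam), with sums of 696 to 1024 CPM, 573 to 684 CPM and 623 to 709 CPM. Mast cell and basophil markers summed to 2139 to 3149 CPM, 1335 to 1624 CPM and 1379 to 1810 CPM (of 9 tested of 10, 5 fell and 1 rose), dendritic cell markers to 313 to 428 CPM, 166 to 287 CPM and 97.1 to 153 CPM (of 7 tested of 10, 4 fell and 1 rose), and 9 erythroid markers to 484 to 675 CPM, 366 to 702 CPM and 472 to 586 CPM (7 fell and 1 rose). In bulk RNA, fewer cells of a type and less RNA per cell cannot be told apart, and the part of these markers in the integrin differences was not tested.

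Most of the leukocyte integrins were highest in CSF3R-only cells, intermediate in CSF3R-first cells and lowest in CEBPA-first cells, and Itga4 ran the other way. Between CEBPA-first and CSF3R-only cells, 8 members fell and Itga4 rose at an adjusted p under 0.05 (edgeR quasi-likelihood test, Benjamini-Hochberg over 15703 genes). Of all genes tested, 36.6% were lower and 35.4% higher in that comparison. With a change of at least 2-fold required as well, 6 members fell and 0 rose, against 19.0% and 8.07% of all genes. Between CSF3R-first and CSF3R-only cells, 7 members fell and 0 rose, against 21.1% and 21.6% of all genes. Of the 7, only Itgam fell at least 2-fold, against 4.53% lower and 2.13% higher of all genes, and this count was 3 without CSF3R-first replicate A and 0 without replicate B. Between CEBPA-first and CSF3R-first cells, 7 members fell and Itga4 rose, against 24.3% and 24.0% of all genes, and 4 fell at least 2-fold, against 10.3% lower and 2.57% higher. The median log2 fold change of the members was -0.53 for CSF3R-first against CSF3R-only, -1.36 for CEBPA-first against CSF3R-only and -0.84 for CEBPA-first against CSF3R-first, where the medians of all genes tested were -0.02, -0.00 and 0.00. Without CSF3R-first replicate A the first of the members' medians was -0.79 and the last -0.71. The comparisons share samples, so they are not independent of each other. The members were chosen with earlier results of these data known, so their counts and medians are a description only.

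**Figure D1:**
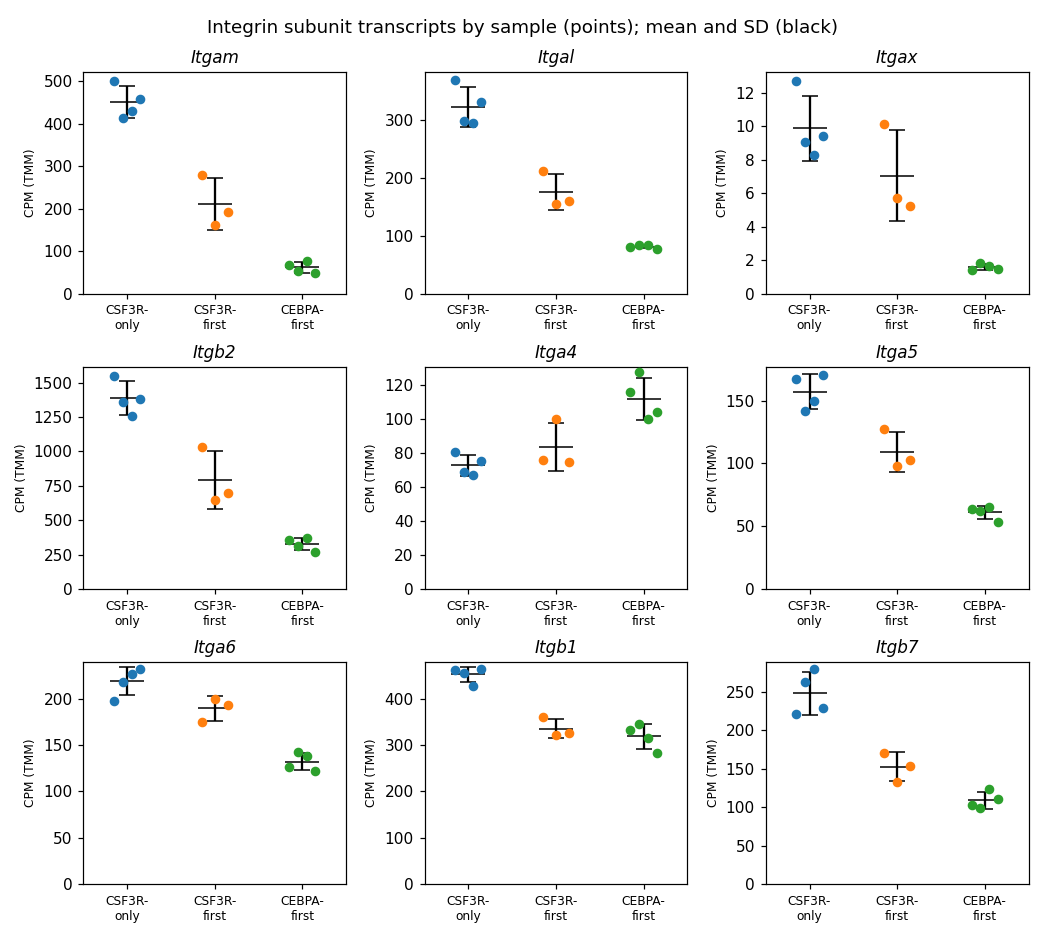
Level of each integrin subunit in CPM (vertical axes, each from 0) in every sample (points) of the 3 groups, with the group mean and SD in black. Itgam lies between 413 and 499 CPM in CSF3R-only samples and between 49.8 and 76.7 CPM in CEBPA-first samples, and Itga4 alone is highest in CEBPA-first samples.

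**Figure D2:**
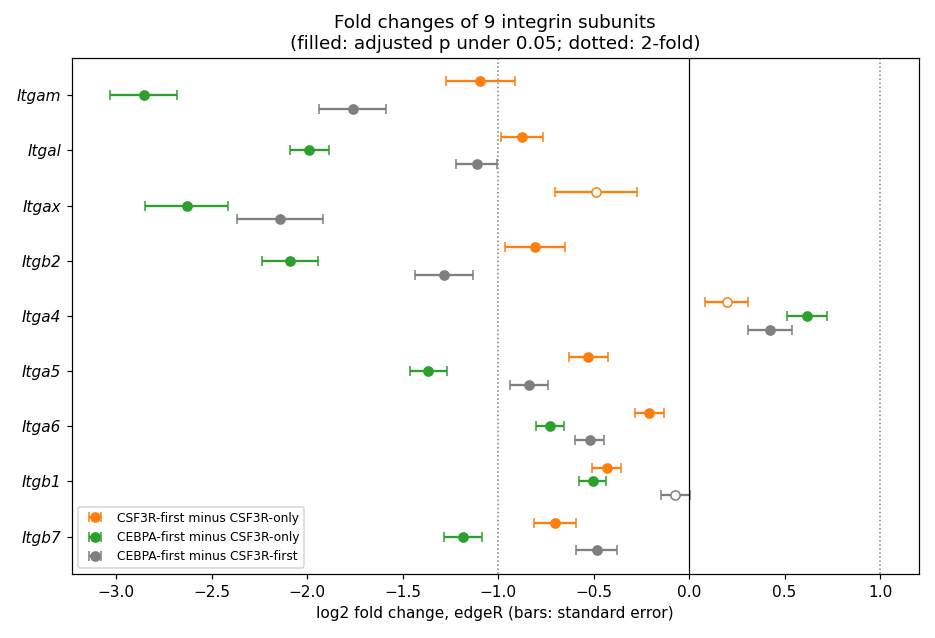
Log2 fold change of each subunit in the 3 comparisons (horizontal axis), with its standard error as a bar. Filled points passed an adjusted p under 0.05 in edgeR and the dotted lines mark a 2-fold change; in both comparisons of CEBPA-first cells the 4 beta 2 family genes lie farthest to the left, and Itga4 lies to the right of 0 in all 3.

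Itgb2, the beta 2 chain, fell in all 3 comparisons. Itgb2 (ENSMUSG00000000290, chr10:77530252-77565708) was at 1550.1, 1359.9, 1258 and 1383 CPM in CSF3R-only replicates A to D, at 1036, 644 and 701 CPM in CSF3R-first replicates A to C, and at 356, 309, 369 and 272 CPM in CEBPA-first replicates A to D. The 3 groups did not overlap, and CSF3R-first replicate A was the nearest of its group to the CSF3R-only samples. Itgb2 fell by 0.81 on the log2 scale in CSF3R-first against CSF3R-only cells (SE 0.16, adjusted p = 0.00158). It was 4.26-fold lower in CEBPA-first cells than in CSF3R-only cells (log2 fold change -2.09, SE 0.15, adjusted p = 7.33e-08) and 2.43-fold lower than in CSF3R-first cells (adjusted p = 3.5e-05). Without CSF3R-first replicate A the log2 fold change of CSF3R-first against CSF3R-only was -1.04, and that of CEBPA-first against CSF3R-first moved from -1.28 to -1.04.

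Itgam (ENSMUSG00000030786, chr7:128062640-128118491), whose product CD11b makes Mac-1 with the beta 2 chain, had the largest change among the 9 in both comparisons with CSF3R-only cells. Its level was 499, 413, 429.7 and 458 CPM in CSF3R-only, 279.8, 162 and 192 CPM in CSF3R-first, and 68.4, 54.0, 76.7 and 49.8 CPM in CEBPA-first samples, in the order of the replicates. No 2 groups overlapped. Itgam was 2.13-fold lower in CSF3R-first than in CSF3R-only cells (log2 fold change -1.09, SE 0.18, adjusted p = 0.00064) and 7.24-fold lower in CEBPA-first cells (log2 fold change -2.86, SE 0.18, adjusted p = 2.25e-08). Between CEBPA-first and CSF3R-first cells the difference was 3.39-fold (adjusted p = 9.52e-06). Without CSF3R-first replicate A the log2 fold change of CSF3R-first against CSF3R-only was -1.35, and without replicate B it was -0.93. That of CEBPA-first against CSF3R-first was -1.76 and, without replicate A, -1.50. The lineage antibodies of the sort, which in common mouse cocktails include one to CD11b, were applied before the culture.

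Itgal (ENSMUSG00000030830, chr7:127296260-127335138), whose product CD11a makes LFA-1, followed the same order with smaller differences. It was at 368, 297, 294 and 330.4 CPM in CSF3R-only, at 212, 155 and 160.4 CPM in CSF3R-first, and at 81.2, 83.9, 83.3 and 77.1 CPM in CEBPA-first samples, and no 2 groups overlapped. The 4 CEBPA-first samples had a mean of 81.4 ± 3.09 CPM (SD, n = 4). Itgal fell by 0.88 on the log2 scale in CSF3R-first (SE 0.11, adjusted p = 0.000104) and by 1.99 in CEBPA-first cells (SE 0.10, adjusted p = 5.31e-09), both against CSF3R-only cells. Without CSF3R-first replicate A the first of these was -1.03, and that of CEBPA-first against CSF3R-first moved from -1.11 to -0.95.

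Itgax (ENSMUSG00000030789, chr7:128129547-128150657), which encodes CD11c, was the least abundant member. It was at 12.7, 9.07, 8.30 and 9.45 CPM in CSF3R-only, at 10.2, 5.74 and 5.26 CPM in CSF3R-first, and at 1.42, 1.84, 1.65 and 1.47 CPM in CEBPA-first samples. CSF3R-first replicate A lay among the CSF3R-only samples, and the CEBPA-first samples were all below the rest. The log2 fold change of CSF3R-first against CSF3R-only was -0.49 (SE 0.21, adjusted p = 0.0833), which did not pass, a call kept in 16 of 18 alternatives. It was -0.84 (adjusted p = 0.00106) without replicate A. Itgax was 6.20-fold lower in CEBPA-first cells than in CSF3R-only cells (log2 fold change -2.63, SE 0.22, adjusted p = 2.74e-07) and 4.42-fold lower than in CSF3R-first cells (log2 fold change -2.14, SE 0.23, adjusted p = 1.37e-05; -1.78 without replicate A).

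Itga4 (ENSMUSG00000027009, chr2:79255426-79333123), the alpha 4 chain of VLA-4, was the only member that rose in any comparison. It was at 80.6, 68.9, 67.1 and 75.4 CPM in CSF3R-only, at 75.9, 100.3 and 74.9 CPM in CSF3R-first, and at 116, 128, 100.3 and 104 CPM in CEBPA-first samples. CSF3R-first replicate B and the lowest CEBPA-first sample were level at 100.3 CPM, while replicates A and C lay within the CSF3R-only range. Itga4 was 1.54-fold higher in CEBPA-first cells than in CSF3R-only cells (log2 fold change 0.62, SE 0.11, adjusted p = 0.000145). Against CSF3R-first cells its log2 fold change was 0.42 (SE 0.11, adjusted p = 0.00893), and without CSF3R-first replicate C it was 0.34 (adjusted p = 0.0549), which no longer passed. CSF3R-first against CSF3R-only gave 0.20 (SE 0.11, adjusted p = 0.183), with 0.05 to 0.29 over the alternatives, none of which passed. Without replicate A these were 0.36 and 0.26, on the same sides of the threshold.

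Itga5 (ENSMUSG00000000555, chr15:103344286-103366763, minus strand), the alpha chain of the fibronectin receptor, was at 167, 142, 149.5 and 170.4 CPM in CSF3R-only, at 127, 97.9 and 102 CPM in CSF3R-first, and at 63.9, 62.0, 65.0 and 53.3 CPM in CEBPA-first samples. The groups did not overlap. Itga5 was 2.57-fold lower in CEBPA-first cells than in CSF3R-only cells (log2 fold change -1.36, SE 0.10, adjusted p = 7.3e-08), and it fell by 0.53 on the log2 scale in CSF3R-first cells (SE 0.10, adjusted p = 0.00167; -0.65 without replicate A). Against CSF3R-first cells it was -0.84 in CEBPA-first cells and -0.71 without replicate A.

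Itga6 (ENSMUSG00000027111, chr2:71745616-71858416), a laminin receptor chain also used to mark stem and progenitor cells, had smaller differences. Its level was 198, 218, 227 and 232 CPM in CSF3R-only, 175, 199.9 and 193 CPM in CSF3R-first, and 126, 142, 138 and 122 CPM in CEBPA-first samples. CSF3R-first and CSF3R-only samples overlapped, and CEBPA-first samples lay below both. Itga6 fell by 0.73 on the log2 scale in CEBPA-first against CSF3R-only cells (SE 0.07, adjusted p = 1.37e-06). Its fall in CSF3R-first cells (log2 fold change -0.21, SE 0.08, adjusted p = 0.0478) stood near the threshold and was kept in 7 of 18 alternatives, with adjusted p from 0.0238 to 0.218. Without replicate A it was -0.15 (adjusted p = 0.151). Against CSF3R-first cells Itga6 fell by 0.52 on the log2 scale in CEBPA-first cells (adjusted p = 0.000211), and the value without replicate A was -0.57.

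Itgb1 (ENSMUSG00000025809, chr8:128685654-128733200), the beta 1 chain shared by all 3 of these alpha chains, was at 462, 455, 427 and 463 CPM in CSF3R-only, at 359, 321 and 326 CPM in CSF3R-first, and at 331, 346, 315 and 283 CPM in CEBPA-first samples. Both groups with mutant CEBPA lay below every CSF3R-only sample and overlapped each other. Itgb1 fell by 0.43 on the log2 scale in CSF3R-first cells (SE 0.08, adjusted p = 0.001) and by 0.50 in CEBPA-first cells (SE 0.07, adjusted p = 2.78e-05), both against CSF3R-only cells. The difference between CEBPA-first and CSF3R-first cells was -0.07 (SE 0.08, adjusted p = 0.461), and it was -0.11 to -0.02 over the alternatives. Without replicate A, CSF3R-first against CSF3R-only was -0.48 and CEBPA-first against CSF3R-first was -0.02.

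Itgb7 (ENSMUSG00000001281, chr15:102215995-102231944, minus strand), the other beta chain of alpha 4, was at 221, 262, 279 and 229 CPM in CSF3R-only, at 171, 133 and 153 CPM in CSF3R-first, and at 102, 99.4, 124 and 110.1 CPM in CEBPA-first samples. The groups did not overlap. It was 1.63-fold lower in CSF3R-first than in CSF3R-only cells (log2 fold change -0.70, SE 0.11, adjusted p = 0.000415) and 2.27-fold lower in CEBPA-first cells (log2 fold change -1.18, SE 0.10, adjusted p = 3.41e-07). CEBPA-first against CSF3R-first gave -0.48 (SE 0.11, adjusted p = 0.0028). Without replicate A the first and the last of these were -0.79 and -0.39 (adjusted p = 0.0135 for the last).

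Levels of different genes were compared per kilobase of exon, and their order depends on that length. In CSF3R-only cells the order was Itgb2 (455 ± 39.6 CPM per kilobase, SD, n = 4), Itgb1 (111 ± 4.18), Itgam (89.6 ± 7.51), Itgb7 (89.4 ± 9.95), Itgal (49.1 ± 5.27), Itga5 (31.9 ± 2.76), Itga6 (24.2 ± 1.67), Itga4 (5.22 ± 0.444) and Itgax (2.06 ± 0.403). Itgam and Itgb7 were closer than their SDs in that order. In CEBPA-first cells Itgb2 (107 ± 14.6 CPM per kilobase, SD, n = 4), Itgb1 (78.1 ± 6.58) and Itgb7 (39.3 ± 3.90) led, followed by Itga6 (14.6 ± 1.04) and then by Itgal (12.4 ± 0.471), Itgam (12.4 ± 2.49) and Itga5 (12.4 ± 1.07), which were level. Itga6 and Itgam differed there by less than the SD of Itgam. Itga4 was at 8.02 ± 0.888 and Itgax at 0.332 ± 0.0399 CPM per kilobase there. Per kilobase of coding sequence the order in CEBPA-first cells differed, with Itga4 (36.2 ± 4.01 CPM) next to Itga6 (39.1 ± 2.78) and above Itgal (21.5 ± 0.816), Itga5 (19.2 ± 1.67) and Itgam (17.3 ± 3.48), and Itgb2 (139.9 ± 19.2) and Itgb1 (129 ± 10.9) within the SD of Itgb2. In CSF3R-only cells Itga6 (64.7 ± 4.46) then came before Itga5 (49.4 ± 4.29), and the other places stayed. In CSF3R-first cells (n = 3) Itgb2 was at 260.0 ± 69.4, Itgb1 at 82.2 ± 5.10, Itgb7 at 55.0 ± 6.78 and Itgam at 42.0 ± 12.2 CPM per kilobase. Of the exon bases of Itgam, 68.7% also lie in exons of an overlapping gene on the same strand, Gm49368, which was itself at 0.278 CPM in CSF3R-only cells. How such shared reads were counted is not given in the sources used here, so the level of Itgam per kilobase may be too low, and its rank is uncertain. Comparisons of Itgam between groups use the same bases. Itga4 shares 8.04% of its exon bases with Cerkl on the other strand.

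The make-up of the family differed between the groups as well as its amount, and is given as a description with no test. Itgam made up 63.7% ± 0.789 (SD, n = 4) of the summed Itgam, Itgal and Itgax level per exon length in CSF3R-only cells, 59.4% ± 2.78 (n = 3) in CSF3R-first cells and 49.0% ± 4.61 (n = 4) in CEBPA-first cells. Itgal made up 34.9%, 38.6% and 49.7%, and Itgax 1.45%, 2.06% and 1.33%. If only the 1574 exon bases of Itgam outside Gm49368 were counted, its share was 84.8%, 82.3% and 75.3%, so the order of the groups stayed and the order of Itgam and Itgal in CEBPA-first cells did not. The ratio of Itgam to Itgal per exon length was 1.77 to 1.91 in the CSF3R-only samples, 1.36 to 1.73 in the CSF3R-first samples and 0.842 to 1.20 in the CEBPA-first samples. Against their common beta chain, Itgam fell from 0.197 ± 0.00970 to 0.161 ± 0.00741 and 0.115 ± 0.00862 of the Itgb2 level, with no overlap between groups. The ratio of Itgal to Itgb2 overlapped in all 3 groups (0.108 ± 0.00432, 0.104 ± 0.00879 and 0.117 ± 0.0138).

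Of the summed Itga4, Itga5 and Itga6 level per exon length, which leaves out other partners of beta 1 such as Itgav and Itga1, Itga4 took 8.52% ± 0.616 (SD, n = 4) in CSF3R-only cells, 12.2% ± 2.08 (n = 3) in CSF3R-first cells and 22.9% ± 1.87 (n = 4) in CEBPA-first cells. Itga5 took 51.9% ± 2.38, 45.0% ± 5.45 and 35.3% ± 1.82, with overlap between CSF3R-first and CSF3R-only samples. Itga6 stayed between 35.6% and 45.1% in every sample. Per coding length, Itga4 took 17.1%, 22.9% and 38.3%, Itga5 35.9%, 29.3% and 20.3%, and Itga6 47.0%, 47.7% and 41.4%, so the order of the groups stayed for Itga4 and Itga5, while Itga6 came before Itga5 in all 3 groups and Itga4 before Itga5 in CEBPA-first cells. Without CSF3R-first replicate A the shares per exon length in CSF3R-first cells were 12.9% for Itga4, 42.0% for Itga5 and 45.1% for Itga6. Of the summed Itgb1, Itgb2 and Itgb7 level, which leaves out other beta chains such as Itgb3 and Itgb5 (50.3 and 47.0 CPM per kilobase in CSF3R-only cells), Itgb1 took 16.9% ± 0.554, 21.1% ± 2.74 and 34.9% ± 2.61. Itgb2 took 69.3% ± 2.42, 65.0% ± 3.86 and 47.5% ± 2.59, with overlap between CSF3R-first and CSF3R-only samples. The ratio of Itga4 to Itgb7 per exon length was 0.0476 to 0.0723 for CSF3R-only samples, 0.0881 to 0.149 for CSF3R-first samples and 0.161 to 0.255 for CEBPA-first samples, so the ratio of the 2 chains of the MAdCAM-1 receptor did not overlap between groups. Its size depends on the length used: per coding length it was 0.188 to 0.286, 0.348 to 0.589 and 0.635 to 1.01, in the same order of groups. Itga4 rose and Itgb7 fell in CEBPA-first cells against each of the other groups.

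**Figure D3:**
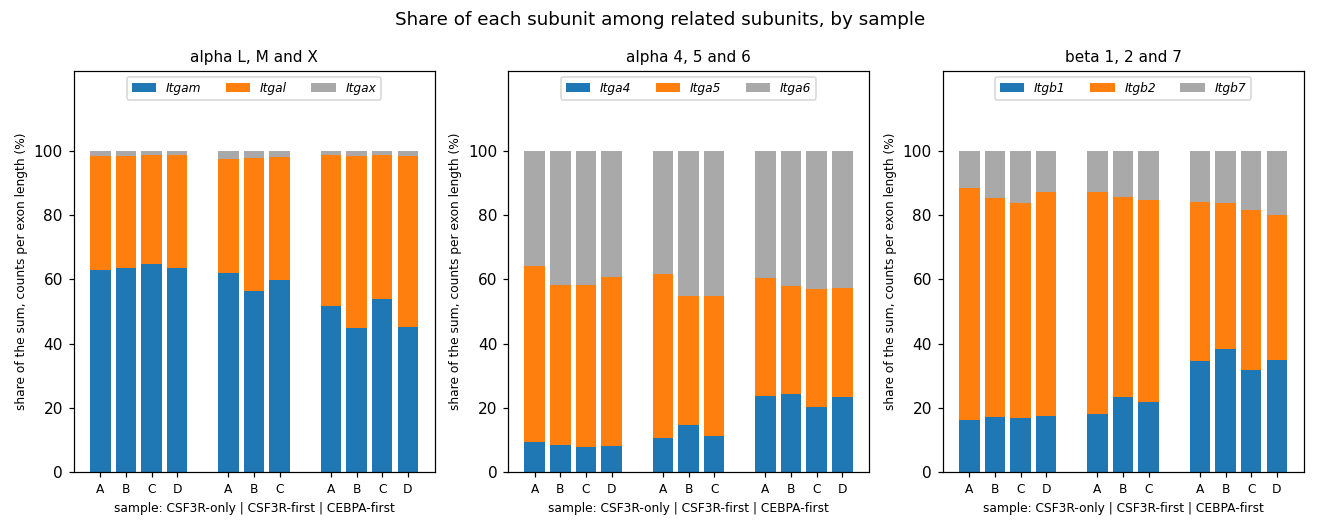
Share of each subunit (vertical axis, percent of the summed counts per exon length) in each sample, within the sum of Itgam, Itgal and Itgax, of Itga4, Itga5 and Itga6, and of Itgb1, Itgb2 and Itgb7. In CEBPA-first samples Itga4 takes 20.2% to 24.4% of its set and Itgb1 31.8% to 38.2% of its set, above every other sample.

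CSF3R-first cells were then placed between the other groups for each member, with 0 at the CSF3R-only mean and 1 at the CEBPA-first mean of log2 CPM. The mean place was 0.393 for Itgam, 0.446 for Itgal, 0.398 for Itgb2 and 0.390 for Itga5. It was 0.204 for Itgax, 0.284 for Itga6, 0.304 for Itga4, 0.594 for Itgb7 and 0.853 for Itgb1. Replicates differed: for Itgam they lay at 0.237, 0.513 and 0.428, for Itgb2 at 0.200, 0.527 and 0.469, and for Itga4 at 0.0977, 0.749 and 0.0655. Replicate A was the nearest to CSF3R-only cells for each beta 2 family member, for Itga5, Itgb1 and Itgb7, and the farthest for Itga6. These places have no test, and those of Itga4, Itga6 and Itgb1 rest on end groups that differ by less than 2-fold.

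**Figure D4:**
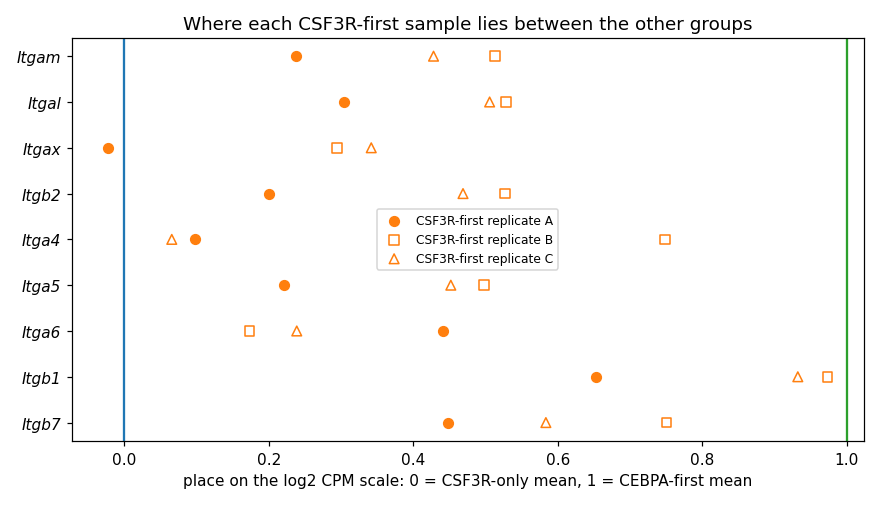
Place of each CSF3R-first sample (symbols) between the CSF3R-only mean at 0 and the CEBPA-first mean at 1 on the log2 CPM scale, for each subunit. Itgb1 lies between 0.653 and 0.973, near CEBPA-first, and Itgax between -0.0231 and 0.342.

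Selectins and their glycan ligands mediate the rolling that precedes integrin adhesion. In CEBPA-first against CSF3R-only cells 36.6% of all genes tested were lower and 35.4% higher, the background of this comparison also for later lists. Of 12 genes of selectins and their ligands, 10 fell and Fut4 rose in it. Those that fell at least 2-fold were Selp, the P-selectin of platelets and endothelium (log2 fold change -2.37), the sialyltransferase St3gal6 (-2.18), Selplg, the main leukocyte selectin ligand (-1.42), the hyaluronan receptor Cd44 (-1.28) and the fucosyltransferase Fut7 (-1.09). Fut4, another fucosyltransferase, had a log2 fold change of 0.78. In CSF3R-first against CSF3R-only cells 8 of the 12 fell and 0 rose, against 21.1% lower and 21.6% higher of all genes tested.

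Of 18 other integrin subunits listed, 14 passed the filter on low counts, and 11 fell and Itgad rose in CEBPA-first against CSF3R-only cells, with a median log2 fold change of -1.47. The farthest were Itgb2l, a gene closely related to Itgb2, (log2 fold change -4.15), the platelet and macrophage chain Itgb3 (-4.12), Itga8 (-2.62), Itgb8 (-2.12), Itgad (1.89) and Itga7 (-1.88). Itgad, another partner of beta 2 next to Itgax on the chromosome, stayed under 1 CPM in every sample, and so did Itgb8. Itga8 averaged 0.925 CPM in CSF3R-only and 0.147 CPM in CEBPA-first cells, and Itga7 2.98 and 0.806 CPM. Itgb3 was at 296.9 CPM in CSF3R-only cells, 90.6 CPM in CSF3R-first cells and 17.0 CPM in CEBPA-first cells on average. Itga2b, the platelet partner of Itgb3, which was chosen after its values were seen, had a log2 fold change of -1.80. All 9 megakaryocyte and platelet markers, of which Itga2b is 1, fell in the same comparison with a median of -4.88, and their part in this was not tested. In CSF3R-first against CSF3R-only cells 9 of the 14 fell and 0 rose, against 21.1% lower and 21.6% higher of all genes tested.

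In inside-out activation, cytoplasmic proteins switch integrins to the binding state. All 12 genes tested of 13 on this list fell in CEBPA-first against CSF3R-only cells (median log2 fold change -0.86), and 11 fell in CSF3R-first against CSF3R-only cells (median -0.46). Of all genes tested, 36.6% and 21.1% were lower in these comparisons, in that order. Talin (Tln1) had a log2 fold change of -0.81 and kindlin-3 (Fermt3) of -0.90 in the first of these, both under 2-fold. Those past 2-fold were the adaptors Skap1 (-2.91) and Fyb (-2.20), the actin regulator Evl (-1.82) and the small GTPase Rap1b (-1.13). Of 18 genes of adhesion signalling, 16 fell and Parvg rose (log2 fold change 0.19) in CEBPA-first against CSF3R-only cells. Among the farthest were Tgfb1i1 (-3.62), which was under 1 CPM on average in every group, the Src family kinase Fgr (-2.72), the parvin Parvb (-2.69), the signalling adaptor Tyrobp (-2.04) and the kinase Ptk2b (-1.62). Of 6 integrin inhibitors 5 fell in the same comparison, with Dab2 (-2.56) and filamin A, Flna (-1.17), past 2-fold.

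Among 12 genes of integrin ligands, 10 were tested, and 6 fell and 2 rose in CEBPA-first against CSF3R-only cells, where 36.6% of all genes fell and 35.4% rose. The junctional molecules Jam2 (log2 fold change -4.03) and F11r (-2.36), E-cadherin, Cdh1 (-2.69), and the VLA-4 ligand Vcam1 (-3.38) fell most. Vcam1 was already at 2.35 CPM in CSF3R-only cells, and Jam2 averaged 9.73 CPM there and 0.587 CPM in CEBPA-first cells. Icam2, a ligand of LFA-1, rose by 0.86 and Jam3 by 0.46. Icam4 had no count in any sample. Against CSF3R-first cells, Icam2 (0.43) and fibronectin, Fn1 (0.92, and 1.49 without CSF3R-first replicate A), rose in CEBPA-first cells, and 6 of the 10 fell. Of all genes tested, 24.3% were lower and 24.0% higher there.

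**Figure D5:**
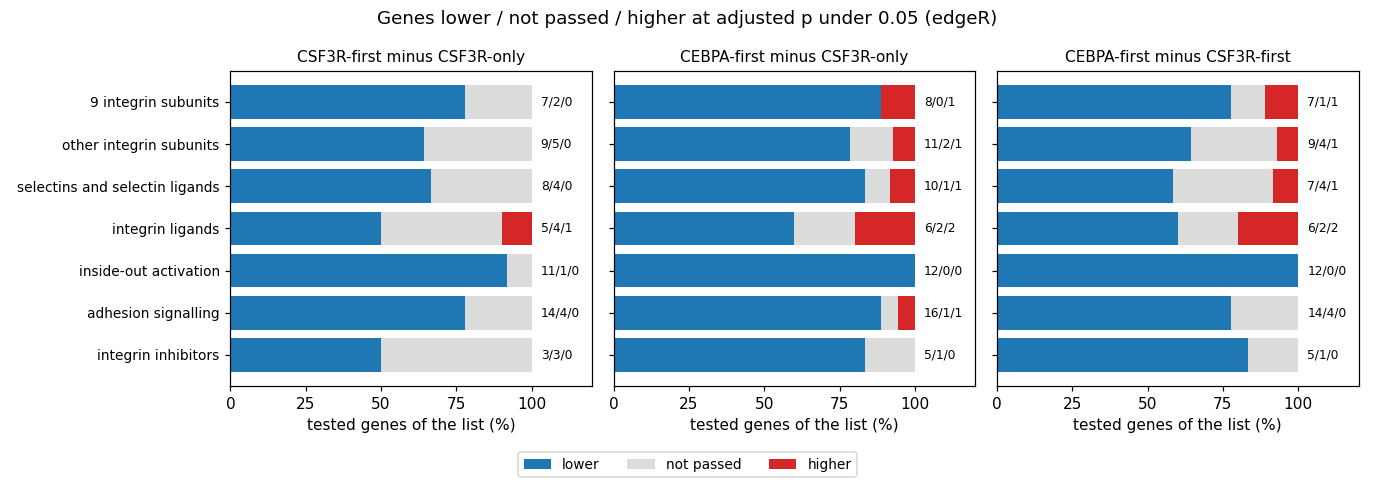
Share of the tested genes of each list (horizontal axis, percent) that were lower, did not pass, or were higher at an adjusted p under 0.05 in edgeR, for the 3 comparisons, with the counts beside each bar in that order. All 12 inside-out activation genes tested are lower in both comparisons with CEBPA-first cells. Of all genes tested, 36.6% are lower against CSF3R-only cells and 24.3% against CSF3R-first cells.

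The genes most like each member over the 11 samples were sought among 9143 tested genes whose average log2 CPM reached 3. For Itgam these were Dennd1c (Pearson r = 0.9996) and Grina (0.9995), for Itgb2 Slc2a6 (0.9992) and Sp140 (0.9991), for Itgal Tnfaip2 (0.9987) and Nedd9 (0.9987), and for Itga5 Tnip1 (0.998) and Nfkb2 (0.998). For Itgax they were Treml4 and Slc39a4 (both 0.991), for Itga4 Mmgt1 (0.988) and Senp5 (0.988), for Itga6 Kcnj5 (0.986) and Ltbp1 (0.981), for Itgb1 Tmod3 (0.991) and Tmem167b (0.986), and for Itgb7 Kctd11 (0.989) and Dok2 (0.984). All of these values include the difference between the groups, which the samples share. With the group means subtracted, r was 0.992 for Dennd1c, 0.986 for Sp140, 0.962 for Mmgt1 and 0.736 for Dok2, the lowest of the 18 pairs. The pairs were chosen by r over the same samples, so these values are not independent of that choice.

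Genes next to the members on the chromosome did not all move with them. On chromosome 7, Itgam and Itgax both fell in CEBPA-first against CSF3R-only cells. Gm49368, which overlaps Itgam and ends before Itgax, had a log2 fold change of -2.58 (adjusted p = 0.00203), from 0.278 CPM in CSF3R-only cells. Itgad beyond Itgax had a positive log2 fold change at under 1 CPM, and Trim72 before Itgam did not pass the filter on low counts. The neighbours of Itgal were Sephs2 (log2 fold change 0.12, adjusted p = 0.0769) and Zfp768 (-0.23, adjusted p = 0.0156) in that comparison. Those of Itgb2 were Fam207a, which rose by 0.33, and Pttg1ip, which fell by 0.71 on the log2 scale. Zfp385a beside Itga5 (-1.06), Nrp1 beside Itgb1 (-0.49) and Rarg beside Itgb7 (-0.94) fell with the member, and Pdk1 beside Itga6 (0.57) rose. Ube2e3 before Itga4 had -0.15 (adjusted p = 0.0289), and Cerkl, whose exons overlap those of Itga4 on the other strand, 0.77 (adjusted p = 0.00184) at 1.34 CPM in CEBPA-first cells. On the other side of Itgb7, Zfp740 had -0.12 (adjusted p = 0.156). Neurod1, Gtsf1, Dlx2 and Ccdc7a, beside Itga4, Itga5, Itga6 and Itgb1, did not pass the filter on low counts.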

How the data were processed

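Lineage-negative, doubly transduced marrow cells were analysed in 3 groups, taken from the sample titles. Per the study's methods, the authors made libraries with the SMARTer low input kit, sequenced single reads, trimmed them with Trimmomatic, aligned them to mm10 with STAR and deposited raw counts per gene for 11 samples; the counting tool, its annotation and its use of strand are not given in the sources used here. Of 51912 Ensembl identifiers, 51719 matched GENCODE M21 (GRCm38), which gave symbols, positions and exon lengths. The 193 others made up no more than 0.00896% of any sample.

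Counts were fitted with edgeR 4.0.16 in R 4.3.3 (TMM, filterByExpr by group, quasi-likelihood, 1 fit of the 3 groups, no covariates), leaving 15703 genes, with Benjamini-Hochberg adjustment and thresholds of 0.05 and, for 2-fold calls, a log2 fold change of 1. Standard errors were taken as the size of the log2 fold change over the root of F. CPM are scaled by TMM; for likeness and place, log2 CPM had a prior count of 2. Upstream letters were searched in 250 bases. Near-identical stretches (97% over 100 bases, BLAST 2.17.0) lay outside the overlapping genes only for Itga6, over 7.56% of its longest transcript (Gm29397). The script was tested on simulated data.

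The members and gene lists were chosen with earlier results of these data known. Text gives all members, of each other list at most 6 genes past adjusted p 0.05 and 2-fold by size in CEBPA-first against CSF3R-only, genes of a list at 0, the 2 genes most like each member, and chromosome neighbours; other genes are named where a count of 5 or fewer needed it. Tln1 and Fermt3 were named after their values were seen. Some genes that this rule names are not reported here. Alternatives were DESeq2 1.42.0, RLE and upper quartile scaling, no filter, at least 10 counts in every sample, the 2 compared groups alone, the replicate letter as a block and leaving out each sample, and for shares raw counts, coding length and, added after seeing the data, unshared exon bases.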

Additional observations from a re-analysis of the deposited data

How the results depend on the processing

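Of 486 values of members under the alternatives, 472 kept their direction and side of the threshold, 12 lost and 2 gained significance and none reversed. Of the 12, 11 were Itga6 in CSF3R-first against CSF3R-only cells, where DESeq2 gave an adjusted p of 0.05001, and the other was Itga4 without CSF3R-first replicate C, which took the number of members higher in CEBPA-first than in CSF3R-first cells from 1 to 0 (range 0 to 1 over samples left out). The number of members at least 2-fold lower in CSF3R-first than in CSF3R-only cells was 1, and 0 to 3 over samples left out (3 without CSF3R-first replicate A, 0 without replicate B). The number of list genes higher in that comparison was 1, against 2 by DESeq2, 2 by upper quartile scaling, 3 with at least 10 counts in every sample, and 1 to 2 over samples left out; the cause was not tested. Same-letter correlations of deviations were -0.107 to 0.362 over 10 pairs (median 0.125, against -0.0694 over 30 pairs of other letters), and 12 of 20 best matches had the same letter. Not every pair was over 0.1, so the letters were not taken to pair the samples, although the medians are a hint, from the data and not the design, that some may. With the replicate block, 8 members were lower in CSF3R-first than in CSF3R-only cells against 7 without it, since Itgax passed (adjusted p = 0.0252). Shares of subunits depend on the length used: with coding length Itgam made up 58.7% to 43.8% and Itga4 17.1% to 38.3% of their sets from CSF3R-only to CEBPA-first cells, in the same order of groups. Itgax, at 83 to 115 counts in CEBPA-first samples, was the member most limited by depth.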
